A study of Homo sapiens with 10 samples.

Results

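The replication-dependent histones are the histones made in bulk during S phase. They were followed here in 64 of the 21357 genes named on the array, through the 71 of 54613 probe sets (controls left out) whose platform symbol names a gene of the HIST1 to HIST4 clusters (current names H1-1 to H1-6 and the numbered H2AC, H2BC, H3C and H4C genes). Of the 64 genes, 56 lie on chromosome 6, 6 on chromosome 1, 1 on chromosome 12 and 1 on chromosome 21 (RefSeq, GRCh38.p14). Of the probe sets, 7 read linker histones H1, 16 H2A, 20 H2B, 10 H3 and 16 H4, and 2 name H3 genes together with H2AC7. Only 51 name a single gene. The other 20 name several histone genes, in 18 of them genes of 1 class and in 2 genes of H3 and H2A, and their values cannot be given to any one of them. The names H2AC5P and H4C10P are pseudogenes, and H2BC12L is an H2B gene outside the main clusters that the symbol rule also takes in.

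The data come from 5 preparations of microvesicles released by K562 cells and 5 of the parental K562 cells, each on 1 Affymetrix array. K562 is an established human chronic myeloid leukaemia line with erythroid features, and microvesicles are small vesicles that such cells release and that carry RNA. Both groups come from the same line with no treatment named in the labels, 5 independent experiments supplied RNA extracted with Trizol, and biotinylated cRNA was prepared from 100 ng of total RNA. The labels say neither how cDNA was primed nor whether a microvesicle and a cell sample of the same number came from the same culture. The p-values therefore describe variation among preparations, which may be technical. All values given are on the log2 scale, 1 per probe set and array. As these are bulk samples, fewer molecules per vesicle and fewer vesicles that hold a transcript cannot be told apart. The question was which histone transcripts the vesicles hold at levels unlike those of their cells of origin.

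Histones H2A, H2B, H3 and H4 form the protein core around which DNA is wound, and H1 binds the linker DNA between cores. Most of their mRNAs are unusual in that they end in a stem-loop and not in a poly(A) tail. The stem-loop is bound by SLBP, the stem-loop binding protein, and these mRNAs accumulate in S phase and are degraded when DNA synthesis stops. Some of these genes can also give polyadenylated transcripts. Microarray protocols that prime from the poly(A) tail read mainly such transcripts. RefSeq gives 57 of the 64 genes a span of 171 to 797 bases, while H2BC12 (8566 bases), H2BC4 (10757), H2BC5 (13229), H2BC21 (2224), H3C4 (2510), H3C6 (3296) and H4C15 (16753) have longer annotated spans.

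The promoters of these genes share sequence elements, shown here as background. A relation between them and the changes was not tested. The octamer ATTTGCAT, bound by OCT1, was found on either strand of the 250 bases before the start in 13 of 16 H2B promoters, 8 of 13 H2A promoters, 1 of 8 H3 promoters and 0 of 6 H1 and 0 of 13 H4 promoters, against 1.66% of 27305 RefSeq promoters of that length. The letters TATAA were found in all 16 H2B and all 8 H3 promoters, 12 of 13 H2A, 5 of 6 H1 and 11 of 13 H4 promoters, against 19.6% of all promoters, and CCAAT in all H1, H2A, H2B and H3 promoters and in 3 of 13 H4 promoters, against 33.0%. Promoters were available for 56 of the 64 genes (RefSeq, GRCh38.p14). Divergent H2A and H2B neighbours share the stretch between their starts, 194 to 246 bases in the 4 pairs given below. An element in it could count for both genes, so the H2A and H2B counts are not independent. For 3 H2B genes and for 1 H4 gene, the 70 bases before the start are printed 5′ to 3′ on the minus strand, with the octamer and TATAA in capitals.
H2BC11 (chr6:27132796-27132865): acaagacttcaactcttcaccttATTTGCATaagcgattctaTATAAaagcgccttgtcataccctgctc
H2BC21 (chr1:149886683-149886752): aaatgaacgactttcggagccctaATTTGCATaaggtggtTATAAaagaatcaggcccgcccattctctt
H2BC12 (chr6:27146859-27146928): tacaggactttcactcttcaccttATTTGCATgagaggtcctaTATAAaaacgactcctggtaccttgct
H4C8 (chr6:26285535-26285604): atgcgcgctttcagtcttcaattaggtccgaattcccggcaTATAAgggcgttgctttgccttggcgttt
In the 3 H2B promoters the octamer begins 46 or 47 bases before the start and TATAA 27 to 30 bases before it. The H4C8 stretch holds TATAA but no octamer.

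Markers of the line were present in both groups. The 11 K562 markers measured (GATA1, KLF1, TAL1, LMO2, NFE2, HBE1, HBG1, HBG2, HBZ, ALAS2 and TFRC) had means of 6.19 to 12.37 in microvesicles and 6.66 to 12.96 in cells, each by its brightest probe set. HBG1 and HBG2 share theirs. The 5 markers of other blood cells measured (CD3E, MS4A1, CD79A, CD14 and NKG7) had means of 3.48 to 5.53 in microvesicles and 2.93 to 4.96 in cells. Array medians were 4.22 to 4.28 in microvesicles and 4.08 to 4.12 in cells, and the median SD of a probe set was 0.464 in microvesicles and 0.150 in cells. Control probe sets at the 3′ end exceeded those at the 5′ end of ACTB by 3.12 ± 0.34 in microvesicles and 2.39 ± 0.15 in cells (log2, SD, n = 5 each). By a 2-sided exact permutation test p was 0.00794, or 0.0159 adjusted over 2 controls. For GAPDH the excess was 0.62 ± 0.13 in microvesicles and 0.449 ± 0.064 in cells (SD, n = 5 each), with an exact p of 0.0159 before and after adjustment, and the part of RNA integrity in the histone results was not tested.

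Histone transcripts were lower in microvesicles for many H2A and H2B probe sets, and for a few of H3 and H4, while single H1, H2B and H4 probe sets were higher. Of the 71 probe sets, 27 (38.0%) fell and 12 (16.9%) rose in microvesicles (limma, Benjamini-Hochberg adjusted p under 0.05 over all probe sets), where 27% of all probe sets fell and 35.4% rose. Of the 71, 21 fell and 3 rose by at least 1 on the log2 scale, where 18% and 9.96% of all probe sets did. In 19 of the 71 the groups did not overlap, with 13 lower and 6 higher in microvesicles. Of all probe sets 22% were lower and 24% higher without overlap, and neither share was larger in the members. The median change of the members was -0.31, against 0.27 over all probe sets. This excess of falls depended on which probe sets were counted. With 1 probe set a gene, 14 of 45 fell (31.1%), against 31.2% of all probe sets so chosen. By class the falls were 5 of 9 for H2A, 6 of 14 for H2B, 0 of 6 for H1, 1 of 7 for H3 and 2 of 9 for H4. Among the 49 members whose identifier does not end in _s_at or _x_at, 12 fell (24.5%) and 12 rose (24.5%), and the median change was 0.11. The matching shares of all probe sets without these endings were not counted, so the 24.5% cannot be set against a share of the array.

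**Figure D1:**
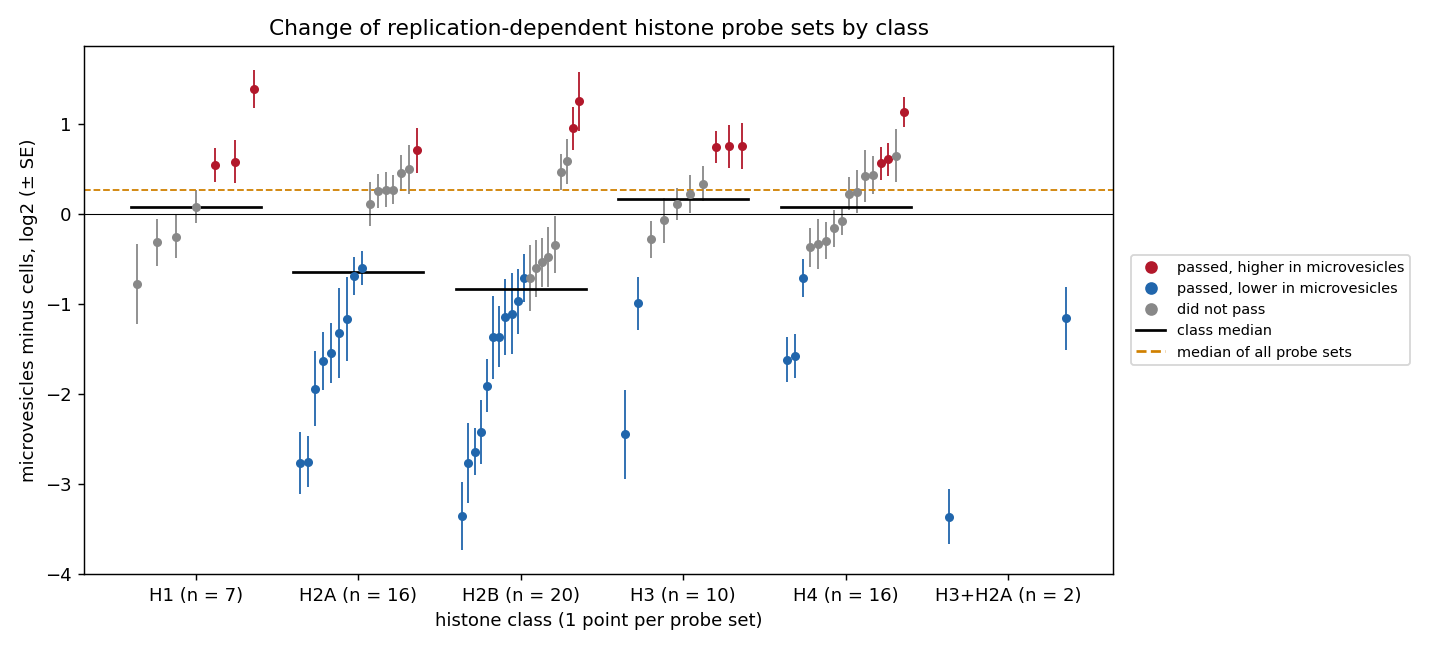
Change of each histone probe set (microvesicles minus cells, log2, vertical axis) by histone class (horizontal axis), with bars of ± 1 SE. The H2A and H2B medians lie at -0.65 and -0.84 and those of H1, H3 and H4 at 0.083, 0.17 and 0.073, while the dashed line marks the median of all probe sets at 0.27.

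The direction of change went with the level of the probe set, in the histones as on the whole array. All 12 probe sets that rose had both group means below 6, with a higher group mean of 2.85 to 5.32. Of the 27 that fell, 23 had a group mean of at least 6. Over all probe sets, 92.4% of those that rose had both means below 6, and 67.8% of those that fell had a mean of at least 6. The 10 histone probe sets with the lowest means over all arrays, not above 3, changed by a median of 0.50, against 0.58 for all probe sets in that range. The 7 with means between 8 and 9 had a median of -1.14, against -0.79. The 18 histone probe sets with a mean between 5 and 6 had a median change of -1.56, against -0.43 for all 7201 probe sets in that range. The deposited values hold no detection call, so a value near the array median is not known to exceed background.

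**Figure D2:**
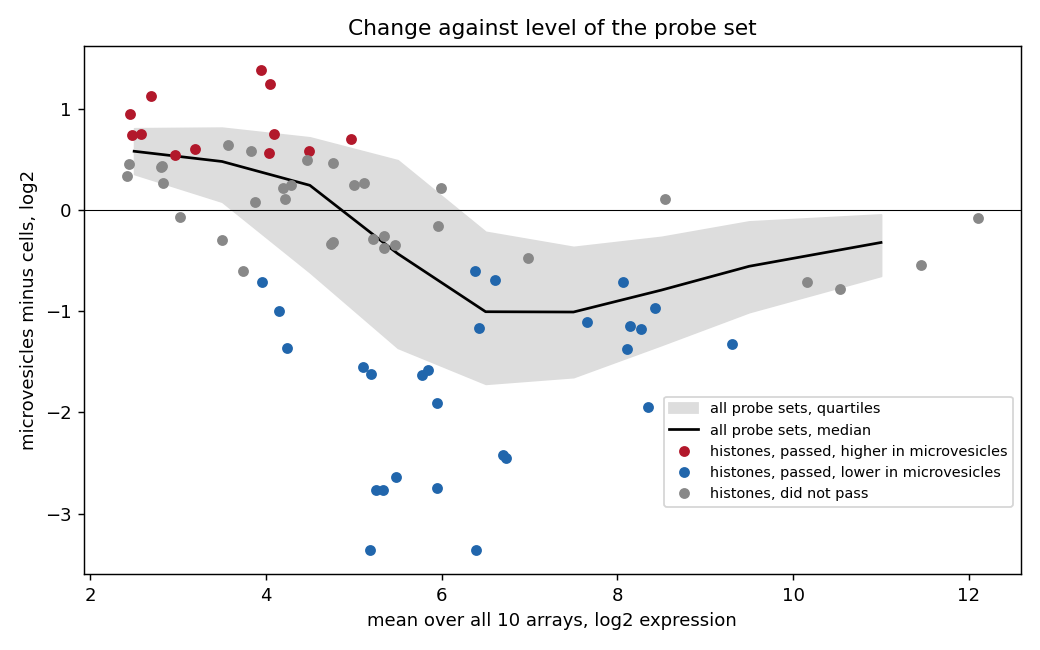
Change (microvesicles minus cells, log2, vertical axis) of the 71 histone probe sets against their mean over all 10 arrays (log2, horizontal axis). The line and the band give the median and the quartiles of all probe sets in bins of level, drawn at the bin centres (at 2.5 and 11 for the outermost bins), and all 12 rises lie at the left, below a mean of 6.

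Because of this dependence on level, the fit was repeated after loess normalization of each array by level, after a second quantile normalization and after centring each array on its median. After loess, 19 histone probe sets fell (26.8%, against 21.6% of all probe sets) and 6 rose (8.45%, against 18.1%), and the median change was -0.12, against 0.026 over all probe sets. After the second quantile normalization 18 fell and 6 rose (18.5% and 18.8% of all probe sets), and after median centring 28 fell and 6 rose (30.2% and 23.9%). These 2 scalings moved the median of all probe sets to 0.12 and 0.11, and that of the histones to -0.079 and -0.47. Under the deposited values and all 3 scalings, 17 falls and 3 rises passed with the same direction, without a matching count over all probe sets. The falls comprise 5 H2A, 6 H2B, 2 H3, 3 H4 and 1 mixed probe set. The rises are those of H1-5, H2BC13 and the probe set of H4C7 and H4C6.

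H2B, a core histone that pairs with H2A, had the lowest median change of the 5 classes, on the deposited scale and under all 3 other scalings. Of its 20 probe sets 11 fell (55%) and 2 rose (10%), where 27% and 35.4% of all probe sets did. The median change was -0.84, and -0.24 after loess. Loess left 7 falls (35%) and 1 rise (5%), against 21.6% and 18.1% of all probe sets. The probe set 210387_at, which reads H2BC11 and H2BC8, had 5.27, 4.81, 5.69, 4.67 and 3.14 in microvesicles, against 8.17, 7.61, 7.73, 8.23 and 8.61 in cells (arrays 1 to 5 in this order, here and below). All 5 microvesicle arrays lay below all cell arrays, and array 5 was the lowest of them. The change was -3.36 ± 0.38 (SE), 10.2-fold lower in microvesicles (limma adjusted p = 9.8e-06), and -2.58 after loess (adjusted p = 6.61e-05).

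H2BC4 on its own, read by 236193_at, had 4.85, 3.39, 4.30, 3.79 and 4.45 in microvesicles, against 6.61, 6.80, 6.78, 6.49 and 7.31 in cells. The groups were far apart, and the change was -2.64 ± 0.26 (limma adjusted p = 2.94e-06, -2.29 after loess). H2BC21, an H2B gene of the chromosome 1 cluster, had 6.58, 5.12, 5.79, 4.19 and 5.77 in microvesicles, against 8.06, 7.85, 7.84, 7.43 and 8.40 in cells. It changed by -2.42 ± 0.35 (limma adjusted p = 7.75e-05, -1.58 after loess), again with no overlap. The single-gene probe set of H2BC11 changed by -1.36 ± 0.33 (limma adjusted p = 0.00355, -1.59 after loess) from a cell mean of 4.92, and its groups overlapped.

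H2BC12 shares the promoter layout of H2BC11 and H2BC21 printed above. Its probe set had 11.79, 11.20, 11.34, 10.16 and 11.44 in microvesicles, against 11.98, 11.73, 11.80, 11.17 and 11.93 in cells. The groups overlapped, and the change of -0.54 ± 0.27 did not pass (limma adjusted p = 0.0975), though it did after median centring (adjusted p = 0.045). H2BC12L did not pass either, with -0.71 ± 0.37 (limma adjusted p = 0.104). The probe sets of H2BC5 changed by -0.97 ± 0.36 and -0.71 ± 0.26 (limma adjusted p = 0.0313 and 0.0317), those of H2BC6 and H2BC9 by -1.14 ± 0.42 and -1.11 ± 0.45 (limma adjusted p = 0.0308 and 0.045). None of these 4 passed after loess, where they stood at -0.22, 0.09, -0.35 and -0.26, so that the direction of 1 H2BC5 probe set was reversed. All 4 calls were also lost on leaving out single arrays: cell arrays 1, 2, 3 and 5 in each case, and further microvesicle arrays 2 and 4 for H2BC5 and 2, 3 and 4 for H2BC9 (adjusted p of up to 0.094). Without both arrays numbered 4 they passed, with limma adjusted p of 0.0194 and 0.0160 for H2BC5, 0.00592 for H2BC6 and 0.0326 for H2BC9. H2BC13 rose, with 4.06, 5.60, 3.55, 4.79 and 5.33 in microvesicles, against 3.51, 3.12, 3.25, 3.43 and 3.77 in cells. Its groups overlapped, since array 3 of the microvesicles lay below array 5 of the cells, and the change was 1.25 ± 0.33 (limma adjusted p = 0.00562, 0.97 after loess). H2BC1, known as a testis H2B, rose by 0.95 ± 0.24 (limma adjusted p = 0.0041) at means of 2.93 in microvesicles and 1.98 in cells, and did not pass after loess (0.40).

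**Figure D3:**
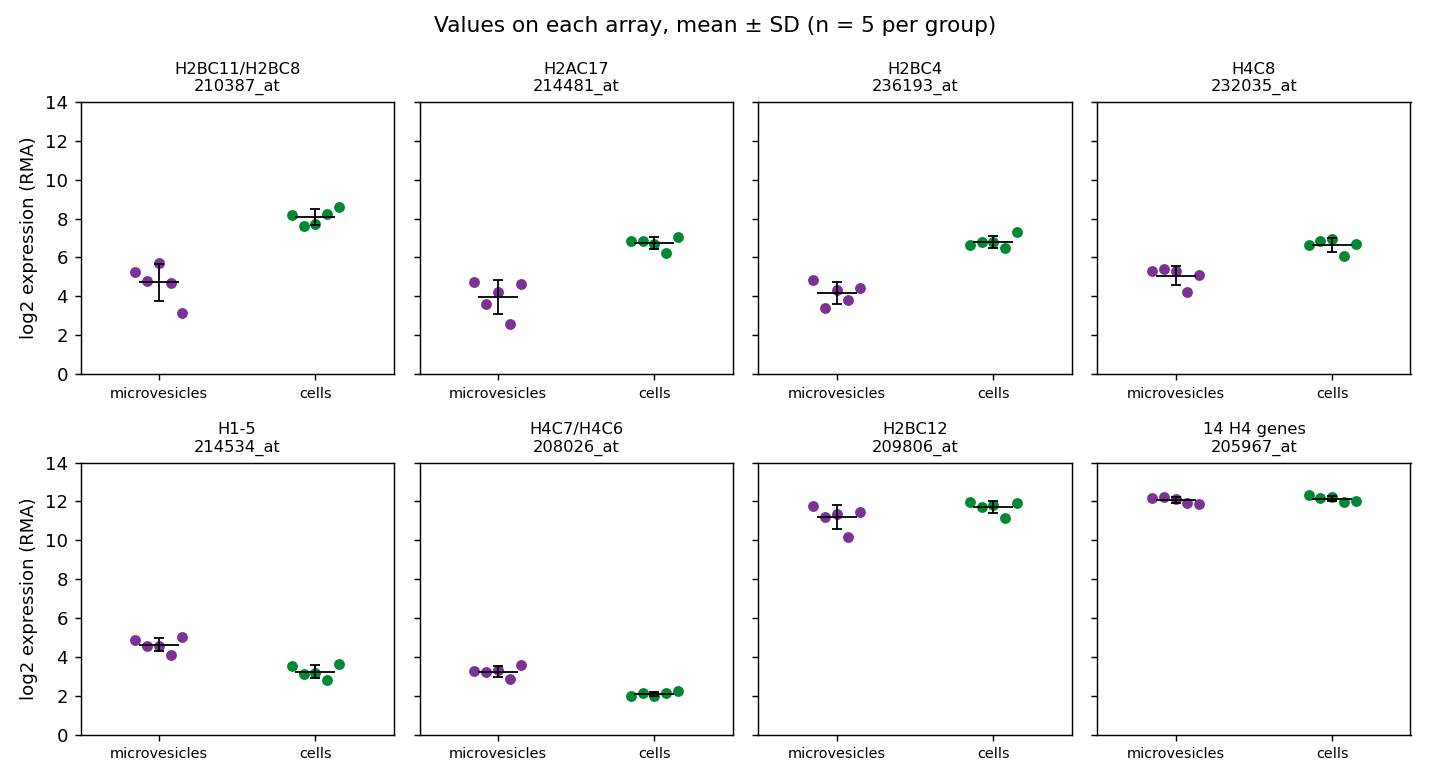
Log2 expression values (vertical axis) on each of the 5 microvesicle arrays (left) and 5 cell arrays (right) for 8 histone probe sets, with the mean and SD of each group. The groups are apart for H2BC11/H2BC8, H2AC17, H2BC4 and H4C8, lower in microvesicles, and for H1-5 and H4C7/H4C6, higher in microvesicles, while they overlap for H2BC12 and for the probe set of 14 H4 genes.

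Of the 16 H2A probe sets 9 fell (56.25%) and 1 rose (6.25%), where 27% and 35.4% of all probe sets did. The median change was -0.65, and -0.19 after loess. After loess 5 fell (31.25%) and 2 rose (12.5%), against 21.6% and 18.1% of all probe sets. The median turned to 0.11 among the H2A probe sets that name 1 gene, and likewise among those without _s_at or _x_at. With 1 probe set a gene it stayed at -0.69. Of the 9 H2A probe sets so chosen 5 fell (55.6%) and 1 rose (11.1%), against 31.2% and 35.5% of all so chosen. H2AC17 had 4.75, 3.61, 4.21, 2.58 and 4.61 in microvesicles, against 6.85, 6.83, 6.67, 6.23 and 7.04 in cells. Every microvesicle array lay below every cell array, with array 4 the lowest in each group, and the change was -2.77 ± 0.35 (6.82-fold lower, limma adjusted p = 2.14e-05, -2.50 after loess). H2AC6 had 8.68, 6.94, 7.79, 5.82 and 7.68 in microvesicles, against 9.62, 9.41, 9.46, 8.49 and 9.64 in cells. It changed by -1.94 ± 0.42 (limma adjusted p = 0.00153, -1.18 after loess with an adjusted p of 0.0228), and only microvesicle array 1 and cell array 4 overlapped. H2AC8 and H2AC15 (239041_at) fell by 1.63 ± 0.32 and 1.55 ± 0.33 (limma adjusted p = 0.000865 and 0.00151). The other H2AC15 probe set stood at 2.97 in microvesicles and 2.70 in cells and did not pass (0.27 ± 0.16, limma adjusted p = 0.15). H2AC4 was the 1 rise, at 0.71 ± 0.25 (limma adjusted p = 0.0236), and did not pass without array 4 or 5 of the microvesicles or array 4 of the cells (adjusted p of up to 0.0572). H2AC25, an H2A gene outside the chromosome 6 cluster, had 9.16, 8.40, 8.62, 7.84 and 8.98 in microvesicles, against 8.88, 8.45, 8.43, 8.14 and 8.52 in cells. These groups overlapped (0.11 ± 0.24, limma adjusted p = 0.691), but after loess this probe set passed upwards at 0.85 (adjusted p = 0.0056).

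Several H2A and H2B genes are divergent neighbours that share the stretch between their starts. RefSeq places 8 such pairs with starts fewer than 500 bases apart among the 64 genes, and in 4 of them both genes have a probe set of their own. In the pair of H2AC6 and H2BC4 (starts 246 bases apart on chromosome 6) both fell, by 1.94 ± 0.42 and 2.64 ± 0.26. For H2AC17 and H2BC17 (240 bases) the values were -2.77 ± 0.35 and -0.60 ± 0.31, and for H2AC14 and H2BC14 (245 bases) -0.69 ± 0.21 and 0.58 ± 0.26. The H2A gene passed in both pairs and the H2B gene did not (limma adjusted p = 0.106 and 0.059). After loess H2BC17 passed as well, at -0.97 (adjusted p = 0.0261), while H2AC14 no longer did and changed direction (0.14, and 0.12 after quantile normalization). H2AC15 and H2BC15 (194 bases) had -1.55 or 0.27, by H2AC15 probe set, and -0.34 ± 0.32 for H2BC15 (limma adjusted p = 0.354). The difference between the genes of a pair was not tested, as they are read by different probe sets.

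Of the 10 H3 probe sets 3 rose (30%) and 2 fell (20%), where 35.4% and 27% of all probe sets did. The median change was 0.17, -0.10 after loess and -0.034 after quantile normalization. Under both scalings limma called 0 rises and 2 falls (20%). Of all probe sets 18.1% rose and 21.6% fell after loess, and 18.8% and 18.5% after quantile normalization. At an unadjusted p under 0.05 there were 0 H3 rises after loess and 1 after quantile normalization. The probe set 206110_at, which names 10 H3 genes, had 7.06, 5.16, 5.83, 3.41 and 6.07 in microvesicles, against 8.19, 8.02, 7.997, 7.39 and 8.19 in cells. Its groups did not overlap, and it ran over a wide range in microvesicles, with array 4 lowest and array 1 highest. The change was -2.45 ± 0.49 (limma adjusted p = 0.00092, -1.61 after loess). H3C2 fell by 0.99 ± 0.29 (limma adjusted p = 0.0103, -1.25 after loess). The rises were those of H3C11 (0.75 ± 0.18), 1 of 2 H3C6 probe sets (0.76 ± 0.26) and the other probe set of the 10 H3 genes, 214646_at (0.75 ± 0.24). All 3 had means of at most 4.46 in microvesicles, and none passed after loess (adjusted p = 0.41, 0.559 and 0.125). Of the 2 probe sets that name H3 genes with H2AC7, 214472_at had 4.48, 3.20, 4.01, 3.25 and 2.56 in microvesicles, against 7.16, 6.81, 6.82, 6.37 and 7.15 in cells, a change of -3.36 ± 0.31 (10.3-fold lower, limma adjusted p = 1.67e-06, -3.19 after loess). The other fell by 1.16 ± 0.35 (limma adjusted p = 0.0111) and did not pass after loess (adjusted p = 0.434).

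Of the 16 H4 probe sets 3 fell (18.75%) and 3 rose (18.75%), where 27% and 35.4% of all probe sets did. The median was 0.073 (-0.086 after median centring). After loess 4 fell (25%) and 2 rose (12.5%), against 21.6% and 18.1% of all probe sets. Both probe sets of H4C8 fell. The first, 232035_at, had 5.29, 5.39, 5.30, 4.20 and 5.12 in microvesicles, against 6.63, 6.83, 6.95, 6.08 and 6.71 in cells. The second, 208180_s_at, had 5.19, 4.72, 3.92, 4.15 and 3.95 in microvesicles, against 6.16, 5.99, 6.25, 5.51 and 6.10 in cells. In neither did the groups overlap, and the changes were -1.58 ± 0.24 and -1.62 ± 0.25 (limma adjusted p = 0.000124 and 0.000134), -1.01 and -1.44 after loess. H4C4 fell by 0.71 ± 0.21 (limma adjusted p = 0.0113, -1.02 after loess). The probe set of H4C7 and H4C6 had 3.31, 3.23, 3.33, 2.85 and 3.57 in microvesicles, against 2.01, 2.17, 2.02, 2.15 and 2.26 in cells. It rose by 1.14 ± 0.17 (limma adjusted p = 8.78e-05, 0.58 after loess) without overlap, at values below the array medians in both groups. H4C13 rose by 0.61 ± 0.18 (limma adjusted p = 0.0112) and was at 0.13 after loess, where it did not pass.

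H1 had 3 rises (42.9%) and 0 falls among 7 probe sets by limma, where 35.4% of all probe sets rose and 27% fell. Falls were also 0 at an unadjusted p under 0.05. The median change was 0.083, 0.019 after loess and -0.076 after median centring. Both scalings left 1 rise (14.3%), against 18.1% and 23.9% of all probe sets. H1-5 had 4.89, 4.59, 4.57, 4.13 and 5.03 in microvesicles, against 3.53, 3.11, 3.18, 2.82 and 3.63 in cells. All microvesicle arrays lay above all cell arrays, with array 4 lowest in both groups, and the change was 1.39 ± 0.21 (2.62-fold, limma adjusted p = 0.000115, 1.08 after loess). H1-1 rose by 0.55 ± 0.19 (limma adjusted p = 0.0217) and 1 of 2 probe sets of H1-6, the testis linker histone, by 0.58 ± 0.24 (limma adjusted p = 0.0438), with cell means of 2.69 and 4.20. Neither passed after loess (0.023 and 0.44). H1-1 was also lost without cell array 2 or 3, and H1-6 without any single array but microvesicle array 4 or cell array 5 (adjusted p of up to 0.0563 and 0.0985). H1-2 had 11.02, 10.32, 10.40, 8.33 and 10.62 in microvesicles, against 11.43, 11.04, 11.21, 9.72 and 11.21 in cells. In both groups array 4 lay far below the others, the groups overlapped and the change of -0.78 ± 0.45 did not pass (limma adjusted p = 0.136). Without both arrays numbered 4 it was -0.63 and passed (adjusted p = 0.0204). H1-3 and H1-4 stood at -0.25 ± 0.24 and -0.31 ± 0.26 and did not pass (limma adjusted p = 0.361 and 0.301), nor did the other H1-6 probe set (0.083 ± 0.18, limma adjusted p = 0.7).

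Probe sets that name the same genes differed widely. The 5 probe sets that name the same 14 H4 genes had changes from -0.33 to 0.56, of which 1 rose (214516_at, limma adjusted p = 0.0165, not after loess, where adjusted p = 0.244). The probe set 205967_at had 12.17, 12.24, 12.12, 11.92 and 11.87 in microvesicles, against 12.32, 12.18, 12.21, 11.97 and 12.04 in cells. These groups overlapped (-0.078 ± 0.16, limma adjusted p = 0.666), and at values this close to the highest of the arrays (13.87 to 14.10) a part of saturation was not tested. The 2 probe sets of the same 10 H3 genes passed in opposite directions, as given above. Of the 3 probe sets of the same 5 H2B genes (H2BC4, H2BC6, H2BC7, H2BC8 and H2BC10), 214455_at fell by 2.77 ± 0.44 and 208490_x_at by 1.37 ± 0.46 (limma adjusted p = 0.000168 and 0.02), while 208523_x_at did not pass (-0.48 ± 0.33, limma adjusted p = 0.218). After loess 208490_x_at was at -0.58 and no longer passed (adjusted p = 0.31). The 2 probe sets of 6 H2A genes fell by 2.75 ± 0.29 and 0.60 ± 0.19 (limma adjusted p = 4.99e-06 and 0.0146). The second of these, 214542_x_at, turned to 0.18 after loess and 0.14 after quantile normalization and did not pass there (adjusted p = 0.465 and 0.596). Of the 3 probe sets of H2AC18 and H2AC19, 214290_s_at had 9.95, 8.99, 8.67, 6.42 and 9.17 in microvesicles, against 10.37, 9.76, 9.96, 9.26 and 10.45 in cells. It fell by 1.32 ± 0.50 and a second by 1.17 ± 0.47 (limma adjusted p = 0.033 and 0.0426), whereas 218279_s_at did not pass (0.50 ± 0.28, limma adjusted p = 0.127). Neither fall passed after loess (adjusted p = 0.261 and 0.508). Each of these 2 falls was also lost without single arrays, the first without microvesicle array 3 or cell array 1, 3 or 5 (adjusted p of up to 0.0729) and the second without microvesicle array 2, 3 or 4 or cell array 1, 2, 3 or 5 (up to 0.0931). Both passed without the 2 arrays numbered 4 (limma adjusted p = 0.0157 and 0.0205).

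Changes in either direction remained among the probe sets that did not pass, which were 32 of the 71: 4 of H1, 6 of H2A, 7 of H2B, 5 of H3 and 10 of H4. Their changes ran from -0.78 to 0.083 in H1, 0.11 to 0.50 in H2A, -0.71 to 0.58 in H2B, -0.28 to 0.34 in H3 and -0.37 to 0.65 in H4. They include those of H2AC16 (0.46 ± 0.20), H2BC3 (0.46 ± 0.20) and H4C1 (0.65 ± 0.30), the pseudogenes H2AC5P (0.27 ± 0.19) and H4C10P (0.43 ± 0.29), and H3C1, H3C3, H3C7, H3C8, H4C5, H4C9 and H4C11. H4C7 read alone stood at -0.29 ± 0.21 (limma adjusted p = 0.223), against the rise of the probe set it shares with H4C6, and passed downwards after loess (-0.72, adjusted p = 0.0131).

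**Figure D4:**
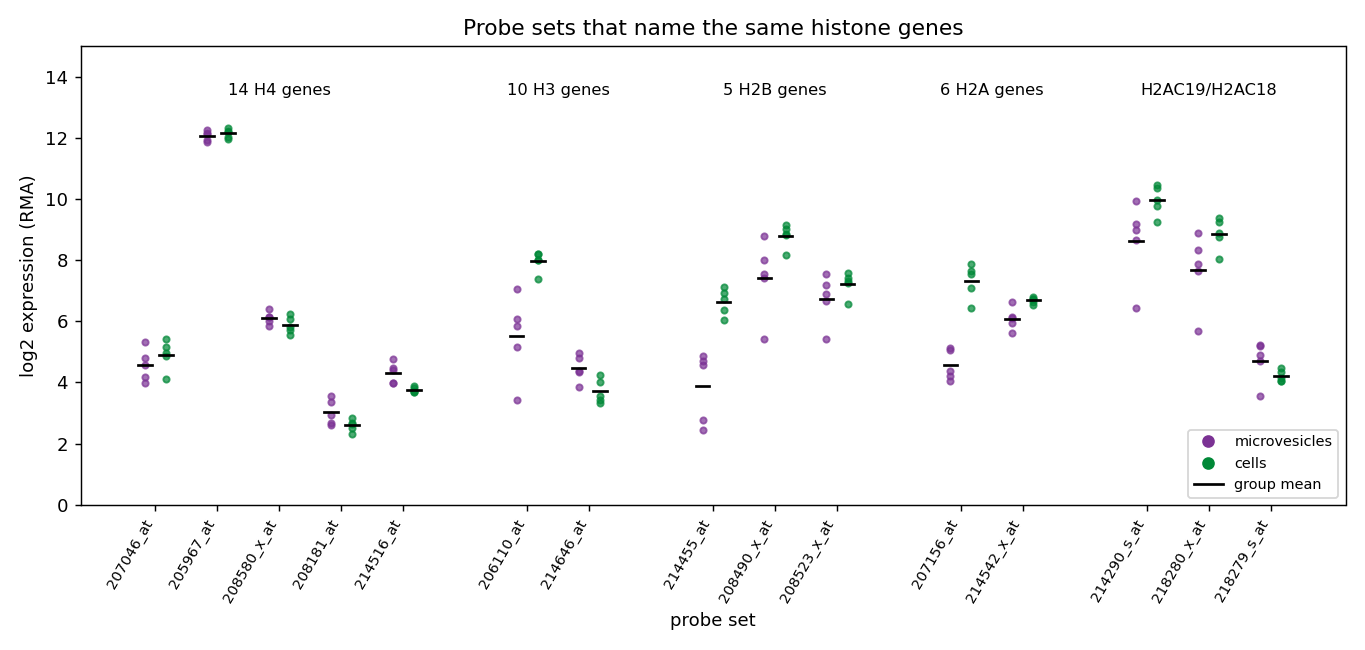
Log2 expression values (vertical axis) of probe sets that name the same histone genes (horizontal axis, grouped by the genes named), with 5 microvesicle arrays at the left and 5 cell arrays at the right of each position and a bar at each group mean. Probe sets of the same 14 H4 genes changed by -0.33 to 0.56, and the 2 probe sets of 10 H3 genes differ in the direction of their change.

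Array 4 stood apart for histones in both groups. In 50 of the 71 histone probe sets (70.4%) cell array 4 was the lowest of the 5 cell arrays, against 21.9% of all probe sets. Microvesicle array 4 was the lowest of its group in 37 (52.1%), against 22.1%. Array 4 was lowest in both groups at once in 31 (43.7%), against 5.97% of all probe sets. Among the 14 histone probe sets with a group mean of at least 8, this was so in 12 (85.7%), against 14.2% of the 6169 probe sets at that level. The median deviation of these 14 from the group mean was -1.54 in microvesicle array 4 and -0.69 in cell array 4. Microvesicle array 1 was the highest of its group in 11 of the 14 (78.6%), against 50.3% of the 6169. Cell array 5 was the highest in 10 (71.4%), against 13.0%. This pattern was noticed after the values were seen.

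The excess of 3′ over 5′ control signal was also largest in array 4 of both groups. For ACTB it was 3.64 in microvesicle array 4 and at most 3.20 in the other microvesicle arrays, and 2.57 in cell array 4 and at most 2.54 in the other cell arrays. For GAPDH it was 0.83 in microvesicle array 4 and at most 0.64 in the other microvesicle arrays, and 0.54 in cell array 4 and at most 0.47 in the other cell arrays. In cells the next largest excess was that of array 5 for both controls (2.54 and 0.47). Cell array 5 was the highest in 10 of the 14 histone probe sets with a group mean of at least 8. The part of the 3′ excess in the low histone values was not tested. Of the 14 histone probe sets with a group mean of at least 8, 9 fell (64.3%) and 0 rose with all arrays, where 66.8% and 5.69% of all 6169 probe sets at that level did. The median change was -1.04, against -0.82 for those 6169, and the groups overlapped in 13. In 8 of the 9 falls only the cell mean reached 8, so these probe sets entered through the group where they were high. Without both arrays numbered 4, 10 fell (71.4%, against 62.0% of all at that level) and 0 rose, with a median of -0.79. At an unadjusted limma p under 0.05 the rises were also 0 in both fits. Of all 71, 28 then fell and 11 rose, where 25.5% and 30.7% of all probe sets did, and the median change was -0.34.

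**Figure D5:**
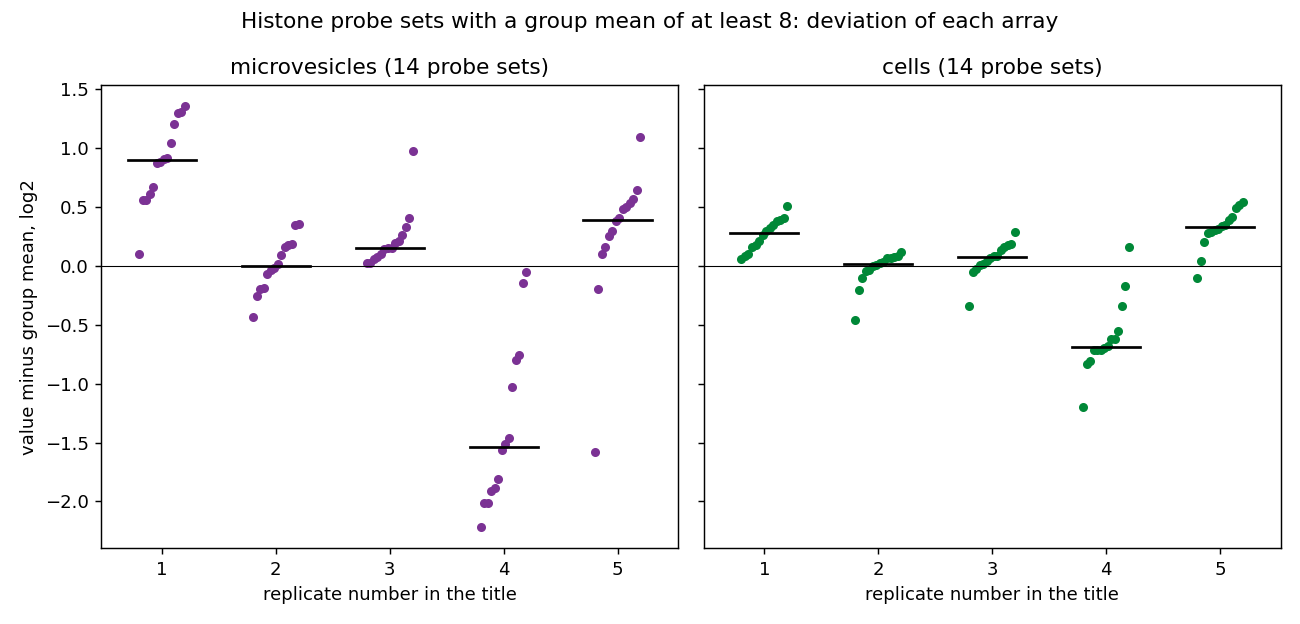
Deviation of each array from its group mean (log2, vertical axis) for the 14 histone probe sets with a group mean of at least 8, by the replicate number in the title (horizontal axis), for microvesicles at the left and cells at the right. Array 4 has the lowest median deviation in both groups, at -1.54 and -0.69.

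Among the genes that process and handle histone mRNAs and histones, falls outnumbered rises on the deposited scale. Over all probe sets 27% fell and 35.4% rose, and of those with a group mean of at least 6, 67.1% fell and 10.3% rose. Of 55 probe sets for 24 histone mRNA processing and decay genes, 29 fell (52.7%) and 2 rose (3.64%), with a median change of -0.57. After loess 23 fell (41.8%) and 8 rose (14.5%), against 21.6% and 18.1% of all probe sets, and the median was -0.34. Of the 34 with a group mean of at least 6, 24 fell (70.6%). A probe set that reached 6 only in cells was lower in microvesicles by that choice. SLBP, which binds the stem-loop, had 9.45, 8.53, 8.87, 8.15 and 8.99 in microvesicles, against 10.22, 10.14, 10.13, 10.44 and 10.45 in cells. All microvesicle arrays lay below all cell arrays, and it fell by 1.48 ± 0.22 (limma adjusted p = 0.0001, -0.87 after loess). Its cell array 4 was not low. NPAT, the activator of histone gene transcription, fell in 2 of 3 probe sets (-2.69 ± 0.26 and -1.58 ± 0.22, limma adjusted p = 2.35e-06 and 6.03e-05), and its other probe set, at a microvesicle mean of 3.32, did not pass (limma adjusted p = 0.0632). CASP8AP2, a factor of histone pre-mRNA cleavage also known as FLASH, changed by -3.03 ± 0.26 and CPSF2, a subunit of the cleavage complex, by -2.88 ± 0.34 (limma adjusted p = 9.79e-07 and 1.33e-05). The rises were single probe sets of CDK9 (1.57 ± 0.21) and SRRT (1.33 ± 0.28), with limma adjusted p of 4.09e-05 and 0.00118. Other probe sets of both genes fell, 1 of the 3 for CDK9 and 2 of the 5 for SRRT.

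Of 65 probe sets for 25 histone chaperone and import genes, 41 fell (63.1%) and 6 rose (9.23%), with a median of -0.85 (-0.30 after loess, with 29 falls and 10 rises). Of the 51 with a group mean of at least 6, 35 fell (68.6%), against 67.1% of all probe sets so chosen. Here too a probe set that reached 6 only in cells was lower in microvesicles by that choice. The largest falls were those of single probe sets of NASP, a chaperone of H3 and H4 (-4.16 ± 0.24), ANP32E, a chaperone of H2A.Z (-4.14 ± 0.46), and ATRX, a remodeller that acts in H3.3 deposition (-2.92 ± 0.27), with limma adjusted p of 4.21e-08, 8.32e-06 and 1.89e-06. SET rose in 1 of 2 probe sets, with means of 10.75 in microvesicles and 9.68 in cells (1.07 ± 0.18, limma adjusted p = 0.000259). Single probe sets of TONSL and HIRA rose by 1.18 ± 0.31 and 1.28 ± 0.25. The other 2 of the 3 TONSL probe sets fell, and the other HIRA probe set did not pass. The replacement variants, which are made throughout the cell cycle from mostly polyadenylated mRNAs, had 11 falls (44.0%) and 6 rises (24.0%) in 25 probe sets for 9 genes, with a median of -0.32 (-0.026 after loess, with 7 falls and 8 rises, and 0.13 after quantile normalization). MACROH2A1 fell in 5 of its 7 probe sets and rose in 2, of which 1558780_a_at changed by 0.89 ± 0.32 (limma adjusted p = 0.0277, 0.48 and not past the threshold after loess). Of single probe sets, H2AZ2 (212205_at) changed by -2.45 ± 0.30 and MACROH2A1 (214500_at) by -2.62 ± 0.17, while MACROH2A2 rose by 0.91 ± 0.19 (limma adjusted p = 1.92e-05, 8.69e-08 and 0.00132). H2AX rose in 1 of 4 probe sets (1.05 ± 0.21, limma adjusted p = 0.000897). The median of the replacement variants and that of the replication-dependent histones, -0.32 and -0.31, lay close together on the deposited scale, and their difference was not tested.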

How the data were processed

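Expression of microvesicles and cells was measured on 10 Affymetrix arrays, 5 per group, grouped and numbered by sample title. Per the submitters' processing notes the authors used RMA, and the deposited numbers are its log2 summaries of each probe set. Its version is not given here. RMA equalises the distribution of probe intensities over arrays, so a different total amount of histone RNA would not show. For arrays, their number limits the precision.

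Probe sets were named through the platform annotation. Of 54630 probe sets, 17 controls were left out. Microvesicles were compared with cells by limma 3.58.1 (lmFit and eBayes, R 4.3.3) with 1 mean per group, 2-sided, with Benjamini-Hochberg adjustment over 54613 probe sets and no filter. A probe set passed at an adjusted p under 0.05. Changes are microvesicles minus cells ± SE, and means are ± SD. The fit was tested on simulated data. Alternatives were the replicate number as a block, 3 scalings, a filter at 6, 1 probe set a gene, a variance trend, array weights, subsets of members and leaving out arrays. Leaving out both arrays numbered 4 was added after the values were seen.

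The members and lists were chosen with earlier results of these data known. Named were up to 3 rises and 3 falls past the threshold per class, all H1 probe sets, all members with a group mean of at least 8 and probe sets of the same genes that passed in opposite directions (40 in all), SLBP and NPAT, and up to 3 rises and 3 falls per list. Other members are named to account for the family and were chosen after their values were seen. Correlations over all probe sets between the deviations of same-numbered arrays were 0.036, -0.025, 0.076, 0.11 and 0.066. The numbers were not taken as pairs, since the labels name none, but low correlations do not show that the samples were unpaired.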

Additional observations from a re-analysis of the deposited data

Results flagged for a closer look

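Single arrays stood far from the other 4 of their group in 11 of the 80 groups tested among the named histone probe sets (2 groups for each of 40 probe sets), where chance flags about 5% of groups and the probe sets are not independent. All 6 such values in cells belonged to array 4. They were 9.72 for H1-2 (others 11.04 to 11.43), 8.49 for H2AC6 (9.41 to 9.64), 8.29 and 7.74 for the H2BC5 probe sets (8.98 to 9.20 and 8.49 to 8.73), 7.39 for 206110_at of 10 H3 genes (7.997 to 8.19) and 4.02 for H3C2 (4.69 to 4.94).

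In microvesicles array 4 was the low one for H1-2, at 8.33 (others 10.32 to 11.02), for H2BC6, at 5.65 (7.72 to 8.48), and for H4C8 (232035_at), at 4.20 (5.12 to 5.39). Array 5 was high for H4C4, at 4.35 (3.28 to 3.55), and array 2 for H2BC1, at 3.88 (2.42 to 2.81).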

How the results depend on the processing

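Among the 71 histone probe sets, the 12 rises became 6 after median centring, 6 after a second quantile normalization and 6 after loess, and 0 with the filter at 6. That filter left 31 members, of which 22 (71.0%) fell, against 67.1% of the 15230 probe sets it left; a member kept for its high cell values alone had to differ. The 27 falls became 14 with 1 probe set a gene (31.1% of 45, against 31.2% of all), 16 among members naming 1 gene and 12 among members without _s_at or _x_at, which hold fewer probe sets. No matching share of all probe sets was counted for members naming 1 gene or without these endings. With each array left out in turn there were 10 to 15 rises and 21 to 29 falls. The median change of -0.31 was -0.47 with centring, -0.079 with quantile normalization, -0.12 after loess, -1.17 with the filter, 0.11 without _s_at or _x_at, and -0.42 to -0.22 without single arrays.

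By class, quantile normalization, loess and the filter gave medians of -0.086, -0.19 and -1.32 for H2A and -0.28, -0.24 and -1.14 for H2B. The filter gave -0.78 for H1 and -2.45 for H3, with 1 probe set left in each. Among members naming 1 gene and among those without _s_at or _x_at the H2A median was 0.11, and the H4 median of the first was -0.23. With 1 probe set a gene the medians were 0.15 for H1, -0.69 for H2A, -0.66 for H2B, 0.11 for H3 and -0.16 for H4. Without single arrays the medians ran from -0.037 to 0.18 for H1, -0.77 to -0.52 for H2A, -1.08 to -0.62 for H2B, 0.091 to 0.26 for H3 and 0.0096 to 0.14 for H4.

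Processing genes had medians of -0.37 (quantile), -0.34 (loess), -1.02 (filter) and -0.99 (1 probe set a gene), and -0.70 to -0.51 without single arrays. Chaperones had -0.298 (quantile), -0.30 (loess) and -0.90 to -0.77 without single arrays. Replacement variants had -0.48 (centring), 0.13 (quantile), -0.026 (loess), -1.15 (filter) and -0.38 to -0.25 without single arrays. Of the histone falls, 3 reversed: H2BC5 222067_x_at, at 0.12 after quantile normalization and 0.090 after loess, H2AC14, at 0.12 and 0.14, and 214542_x_at of 6 H2A genes, at 0.14 and 0.18. Of the 60 probe sets named by rule, 16 others lost their call after loess. The cause was not tested.

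With the replicate number as a block (replicate block), 30 histone probe sets fell and 13 rose (26.7% and 34.3% of all probe sets), and 3 named probe sets passed that had not: H1-2, H2BC12L and H2BC12 (limma adjusted p = 0.00622, 0.0149 and 0.0320). No named call was lost under it. Over all probe sets the correlations of same-numbered arrays were at most 0.11, which cannot decide whether the samples were paired. Microvesicle arrays 3, 4 and 5 correlated best with the cell array of their own number, and arrays 1 and 2 did not. Over the 71 histone probe sets the correlation for array 4 was 0.61, against 0.35, -0.095, 0.078 and 0.019 for the others.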
